A study of Mus musculus with 44 samples.

Results

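The arrays described here are those of the mouse hypothalamus after furosemide, with and without gratification of the salt drive. They were chosen by title: 4 arrays of the furosemide gratified group and 4 arrays of the furosemide group, 8 of the 44 arrays of the series, with all 9554 features of the table. Furosemide is a loop diuretic that makes the kidney lose sodium, and gratified animals are, per the labels, furosemide-treated animals whose craving was gratified. All animals were adult male C57/Bl6 mice, and the control group of 4 hypothalamus arrays had no treatment. The series also holds hypothalamus arrays after the pituitary hormone ACTH (6 gratified and 5 ACTH) and the same groups for the rest of the brain. The dose, the times, what the animals were given for gratification and how many animals went into an array are not stated in the labels. The description numbers of gratified replicates 1 and 2 are zero-padded, whereas those of gratified replicates 3 and 4 and of all furosemide and control hypothalamus arrays have 2 digits. The meaning of the numbers is not given, so the gratified group is shown whole and as the zero-padded pair and the 2-digit pair.

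Loss of sodium is answered in the body by the renin-angiotensin-aldosterone system. Aldosterone acts through the mineralocorticoid receptor (Nr3c2) on targets such as the kinase gene Sgk1, and in the brain angiotensin II and aldosterone raise the appetite for salt. The hypothalamus holds neurons of feeding, drinking and arousal peptides (Agrp, Pomc, Avp, Hcrt, Pmch) and receives and contains dopamine neurons, which use tyrosine hydroxylase (Th), the decarboxylase Ddc and the vesicle transporter Slc18a2. DARPP-32 (Ppp1r1b) relays dopamine receptor signals inside neurons.

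Each value is a log2 ratio, tissue signal over that of a universal mouse reference RNA, so a difference of 1 between arrays is a doubling of the ratio. The marker genes of the labelled tissue were high on all 8 arrays. Oxt, the oxytocin gene, lay between 2.75 and 3.01 on the gratified arrays and between 2.63 and 2.99 on the furosemide arrays, against -0.15 to 0.56 on the 8 brain arrays of the same treatments. Values tied exactly with another feature of the same array, as weak spots at a floor would be, made up 3.64 to 15.3% of a gratified array and 2.81 to 12.2% of a furosemide array. Correlated over all features with the 3 other arrays of its group, a gratified array had a mean r of 0.920 to 0.949 and a furosemide array one of 0.967 to 0.975. The SD among the 4 arrays had a median over features of 0.117 in the gratified group and 0.0905 in the furosemide group, and 65.4% of features varied more in the gratified group.

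The gratified arrays differed in how many features lay far from the furosemide mean. Replicates 1, 2, 3 and 4 had 106, 4, 64 and 50 features over 1 log2 unit from the furosemide mean, whereas the furosemide arrays had 2, 3, 4 and 5 from the mean of the other 3. On gratified replicate 1 these features lay mostly above (82 above and 24 below). Fabp5 had 0.47 there, against -1.32 to 0.0064 on the other gratified arrays and -1.52 to -1.08 on the furosemide arrays, and Sft2d2 had 0.48, against -0.92 to -0.29 and -0.97 to -0.87. Among those below, the synaptic vesicle gene Snap25 (feature SNAP25g-s1) had 1.48 there, against 2.84 to 2.98 on the other gratified arrays and 2.75 to 2.94 on the furosemide arrays. The sodium pump subunit Atp1b1 had -0.24 on gratified replicate 1, 1.91, 1.41 and 1.61 on gratified replicates 2 to 4, and 1.89 to 2.03 on the furosemide arrays.

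**Figure D1:**
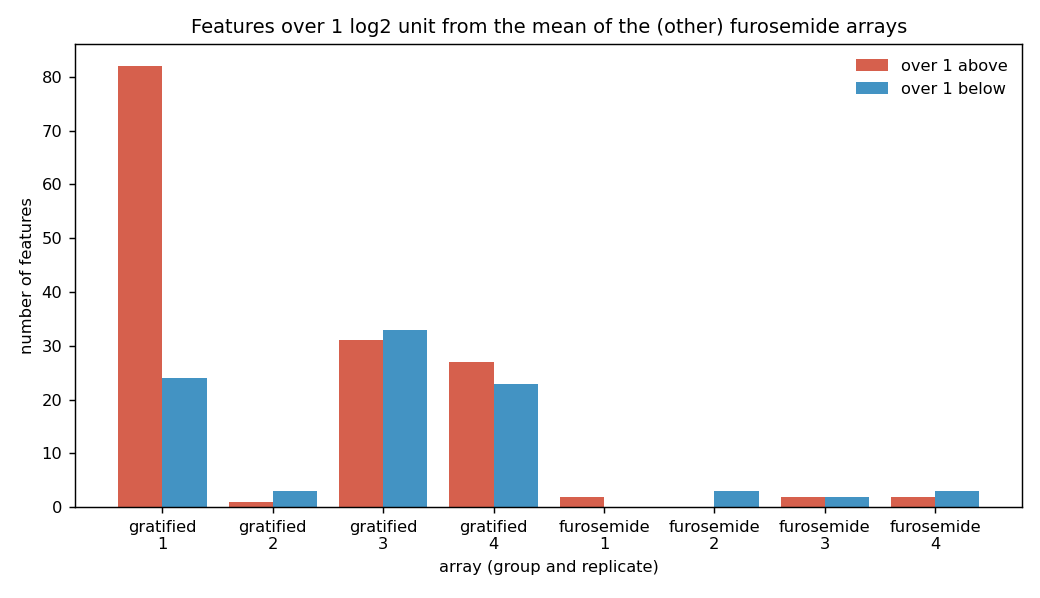
Number of features, of 9554, that lay over 1 log2 unit above or below the mean of the furosemide arrays (for a furosemide array, of the other 3), for each of the 8 arrays. Gratified replicates 1, 3 and 4 have 106, 64 and 50 such features in all, gratified replicate 2 has 4, and the furosemide arrays have 2 to 5.

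Between the whole gratified group and the furosemide group, 1 of 9554 features passed the threshold, an adjusted p under 0.05 (limma with Benjamini-Hochberg adjustment over all features, 0.0105% called), and it was lower in gratified hypothalamus. At an unadjusted p under 0.05 there were 316 features (3.31%), 152 higher (1.59%) and 164 lower (1.72%). The groups did not overlap in 107 features that were higher in all gratified arrays (1.12%) and in 223 that were lower (2.33%). The median difference over all features was -0.014. Without gratified replicate 2, 7 features passed, and leaving out each other array in turn gave 1 or 2.

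The feature past the threshold, C20orf57g-s2, carries a human open reading frame name that matched no mouse symbol, so no role is given. Its log2 ratios were 0.55, 0.43, 0.48 and 0.43 on the gratified arrays, against 0.97, 1.00, 0.92 and 1.00 on the furosemide arrays and 0.51 to 0.71 on the control arrays. All gratified arrays lay below all furosemide arrays, and they overlapped the controls. It fell by 0.50 ± 0.067 on the log2 scale (standard error, limma adjusted p = 0.00151), and the furosemide level was 1.41-fold that of the gratified group. With quantile normalization the adjusted p was 0.226. The other feature of that name, C20orf57g-s1, had 0.71 to 1.08 on gratified arrays and 0.81 to 1.19 on furosemide arrays. Its groups overlapped, so it did not show the separation seen for C20orf57g-s2.

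No other feature passed in the fit over all 23 arrays, and the genes that follow are those with the smallest p values, given as values. Some of them passed under other settings: with array weights Rlbp1 (adjusted p = 0.00626), Trim23 (0.0177), Slc22a5 (0.0213), En1 (0.0304), Hnrnpul1 (0.0429) and Rpl34 (0.0481), and with all 44 arrays Inha and Klkb1 (0.0477 each). Leaving out 1 array also changed calls. Without gratified replicate 2, Slc1a2 (9.9e-06), Inha (0.00381), Gna15 (0.00391), Klkb1 (0.00396), Upp1 (0.00424) and Uros (0.00483) passed. Fabp5 passed without gratified replicate 3 (0.00424) and Trim23 without furosemide replicate 4 (3.55e-05). Of genes with higher ratios in the gratified group, Rlbp1, the carrier of retinaldehyde that glia also make, had the smallest p. It had 0.38, 0.50, 0.44 and 0.35 on gratified arrays and 0.12, -0.0081, 0.18 and -0.048 on furosemide arrays, without overlap (difference 0.36 ± 0.076, adjusted p = 0.226). Kcnd3, a subunit of transient potassium channels, had 0.58, 0.068, 0.25 and 0.33 in gratified and -0.21, -0.49, 0.054 and -0.50 in furosemide hypothalamus (difference 0.59 ± 0.15). The ribosomal protein gene Rpl34 had 0.34, 0.038, 0.063 and -0.64 on gratified arrays, all above the furosemide range of -0.91 to -0.70. The ubiquitin ligase Trim23 (TRIM23g-s3) had 0.23 to 0.52 in gratified hypothalamus, and of its furosemide values of -0.35, -0.49, -0.41 and 0.56 the last lay above them all. The fatty acid carrier Fabp5 had the largest difference of these, 1.02 ± 0.24, but its gratified values of 0.47, -0.45, -1.32 and 0.0064 overlapped the furosemide range of -1.52 to -1.08. Upp1, Nfe2l3, Hnrnpul1 (HNRNPUL1g-s2), Fcnb and En1 completed the 10, with differences of 0.31 to 0.51 and adjusted p of 0.417 to 0.973.

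Of genes with lower ratios in the gratified group, Slc1a2, the main glutamate transporter of astrocytes, had the smallest p, through 1 of its 2 features. SLC1A2g-s1 had 0.60, 1.56, -0.084 and 0.12 on gratified arrays and 1.49 to 1.70 on furosemide arrays (difference -1.07 ± 0.21, adjusted p = 0.214). SLC1A2g-s2 had 1.78 to 1.96 on gratified arrays and 1.89 to 2.03 on furosemide arrays (difference -0.041 ± 0.12). The features of Slc1a2 therefore disagreed, and the low values of SLC1A2g-s1 lay on gratified replicates 1, 3 and 4. Uros, an enzyme of haem synthesis, had 0.14, 0.26, -0.34 and -0.31 in gratified and 0.37 to 0.51 in furosemide hypothalamus, without overlap. The carnitine transporter Slc22a5 (SLC22A5g-s2) had -0.45, -0.47, -0.76 and -0.51 on gratified arrays against -0.31 to -0.042 on furosemide arrays, a difference of -0.37 ± 0.088. Ptpn5, a tyrosine phosphatase enriched in striatum, had 1.54, 1.87, 0.97 and 1.02 in gratified and 2.02 to 2.15 in furosemide hypothalamus. Inha, Klkb1 (KLKB1g-s1), Gna15, Gpd1, Penk and Synpo completed the 10, with differences of -0.93 to -0.36 and adjusted p of 0.275 to 0.791.

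**Figure D2:**
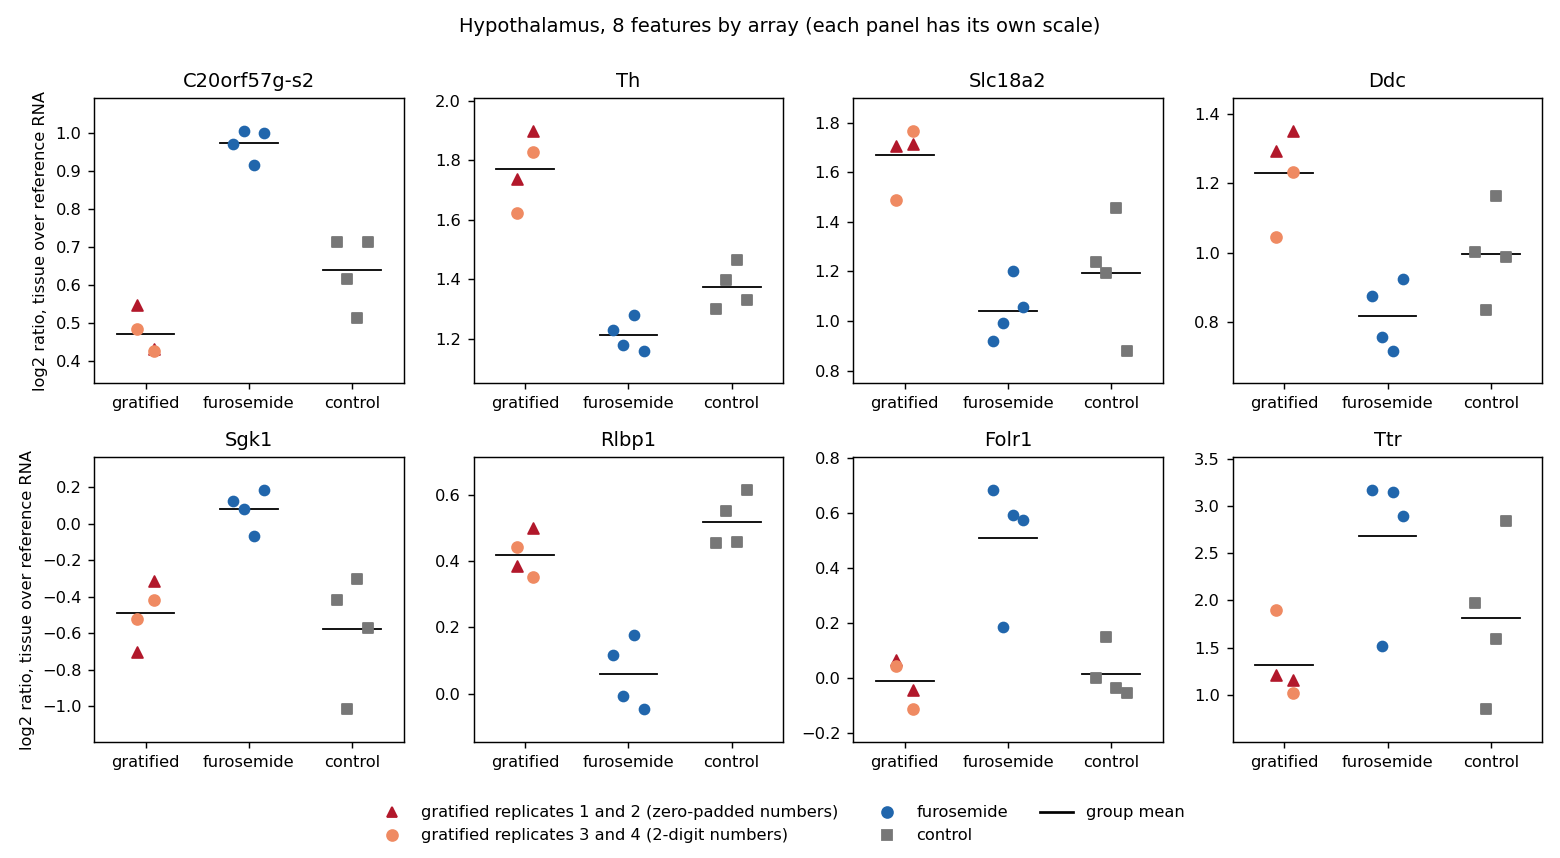
Log2 ratio of tissue over reference RNA of 8 features in each gratified, furosemide and control hypothalamus array, with the group mean as a line and the gratified pairs marked by shape. C20orf57g-s2, Th, Slc18a2, Ddc, Sgk1, Rlbp1 and Folr1 show no overlap between the gratified and furosemide arrays, and Ttr shows furosemide replicate 2 at 1.52, inside the gratified range of 1.02 to 1.90.

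Of the genes of dopamine synthesis and storage, Th, Slc18a2 and Ddc had higher ratios on all 4 gratified arrays than on any furosemide array, as did 1.12% of all features, and none of them passed the threshold. Th, the rate-limiting enzyme of catecholamine synthesis, had 1.74, 1.90, 1.62 and 1.83 on the gratified arrays, against 1.23, 1.18, 1.28 and 1.16 on the furosemide arrays and 1.30 to 1.47 on the control arrays. Slc18a2, the vesicular monoamine transporter, had 1.71, 1.72, 1.49 and 1.77 in gratified and 0.92, 0.99, 1.20 and 1.06 in furosemide hypothalamus. Ddc, the decarboxylase that forms dopamine and serotonin, had 1.29, 1.35, 1.04 and 1.23 in gratified and 0.87, 0.76, 0.72 and 0.92 in furosemide hypothalamus. Since all 4 gratified arrays lay above every furosemide array, both gratified pairs did so as well, and the split into pairs adds no support here.

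The fold changes were 1.47 for Th (log2 0.56 ± 0.18, unadjusted p = 0.00461), 1.55 for Slc18a2 (0.63 ± 0.19, unadjusted p = 0.00346) and 1.33 for Ddc (0.41 ± 0.17, unadjusted p = 0.0215). With the error shared over all 23 hypothalamus arrays, none passed the threshold, with adjusted p of 0.974 for Slc18a2 and 0.9998 for Th and Ddc. Part of that error came from the ACTH gratified arrays, whose Th values ran from 0.51 to 1.76. Among them replicate 4 had a mean r of 0.770 with its group, against 0.903 to 0.915 for the others. It was kept in the fit over all 23 arrays, and its part in the error was not tested. Without the ACTH groups Th passed the threshold (adjusted p = 0.0094), whereas Slc18a2 had 0.230 and Ddc 0.367. With only the 8 arrays compared the adjusted p was 0.053 for Th and 0.057 for Slc18a2. Ddc and the fit without the ACTH groups were chosen after the values were seen.

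The promoters of Th, Slc18a2 and Ddc, genes higher on all 4 gratified arrays, were searched for the cAMP response element letters TGACGTCA. Those of Th and Slc18a2 are shown because they hold these letters, given in capitals. This 8-base palindrome, the same on both strands, is the letters to which CREB binds. The windows run from 250 bases before to 20 bases after the RefSeq start (GRCm38.p6), chr7:142899976-142900245 on the minus strand for Th and chr19:59260628-59260897 on the plus strand for Slc18a2.
Th: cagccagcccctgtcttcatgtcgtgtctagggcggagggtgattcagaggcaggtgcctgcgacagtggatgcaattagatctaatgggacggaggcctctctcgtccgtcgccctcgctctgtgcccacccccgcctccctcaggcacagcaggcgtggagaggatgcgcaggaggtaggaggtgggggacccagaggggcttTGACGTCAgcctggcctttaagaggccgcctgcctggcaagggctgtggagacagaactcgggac
Slc18a2: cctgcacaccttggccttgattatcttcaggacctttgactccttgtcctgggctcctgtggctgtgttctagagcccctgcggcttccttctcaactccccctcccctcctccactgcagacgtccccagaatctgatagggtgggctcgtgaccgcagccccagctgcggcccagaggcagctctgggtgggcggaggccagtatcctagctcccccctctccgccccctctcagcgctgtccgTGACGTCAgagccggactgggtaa
The letters began 45 bases before the start in Th, and in Slc18a2 they began 4 bases before it and ran 4 bases past it. Neither of the 2 RefSeq start windows of Ddc holds them, and Maoa, also higher on all 4 gratified arrays, was not looked at. Of 32851 such windows of 27025 genes, 1.73% hold these letters, and 19.4% hold TGACG or CGTCA, which lie within them. The match is a description of the letters, and no binding was measured.

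Of 22 measured genes of the dopamine and DARPP-32 list, 0 passed the threshold. The gratified arrays were all higher for 4 (Ddc, Maoa, Slc18a2 and Th) and all lower for 1 (Ppp1r1b), beside 1.12% and 2.33% of all features. The list's median difference was -0.10, with 14 genes below 0. Drd1, a dopamine receptor, had 1.07, 0.53, 1.56 and 0.91 in gratified and 1.34 to 1.68 in furosemide hypothalamus (difference -0.49 ± 0.15, adjusted p = 0.991), and Drd2 had 1.32 to 1.63 and 1.50 to 1.68. Ppp1r1b, the gene of DARPP-32, had 2.62, 2.49, 2.50 and 2.59 in gratified and 2.66 to 2.70 in furosemide hypothalamus, a difference of -0.14 ± 0.11. The breakdown enzyme Maoa had -0.43 to -0.36 on gratified and -0.51 to -0.46 on furosemide arrays, a difference of only 0.090 ± 0.10.

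A list of monoamine synthesis, storage and breakdown, added after the values were seen, had 14 measured genes with a median difference of 0.069. Of these genes 9 were above 0 and 5 below. The gratified arrays were all higher for the same 4 of Ddc, Maoa, Slc18a2 and Th, and all lower for the pterin enzyme Spr, beside 1.12% and 2.33% of all features. The 4 had already been seen in the dopamine list, so their count here repeats that result and adds no support to it. Hdc, which makes histamine, had 1.12 to 1.45 in gratified and 0.87 to 1.27 in furosemide hypothalamus (difference 0.28 ± 0.12), and Gch1, which makes the cofactor of Th, had -1.12 to -1.06 and -1.17 to -1.04. Markers of midbrain dopamine neurons had a positive median, with 5 genes above 0 and 3 below. Their list, likewise added later, had 8 of 13 genes measured, a median difference of 0.11, and a mean level of 0.17 to 0.28 on gratified arrays, 0.079 to 0.19 on furosemide arrays and 0.065 to 0.27 on control arrays. En1, a homeobox gene of the midbrain, had -0.62, -0.34, -0.44 and -0.28 in gratified and -0.86 to -0.69 in furosemide hypothalamus, and Nr4a2 had 0.013 to 0.26 and -0.32 to -0.041. In this list only these 2 genes were higher without overlap, beside 1.12% of all features. Pitx3, which marks these neurons most narrowly, had 0.12 to 0.36 in gratified and 0.039 to 0.38 in furosemide hypothalamus, with overlap. The part of these cells in the Th, Slc18a2 and Ddc values was not tested, and in tissue RNA more cells of a type and more RNA per cell cannot be told apart.

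Among genes of salt and water handling, Sgk1 encodes the aldosterone- and glucocorticoid-induced kinase that raises sodium channel activity. It had -0.70, -0.31, -0.52 and -0.42 on gratified arrays, against 0.12, 0.082, -0.068 and 0.18 on furosemide arrays and -1.02 to -0.30 on control arrays. All gratified arrays were below all furosemide arrays and within the range of the controls. The difference was -0.57 ± 0.19 (unadjusted p = 0.00706, limma adjusted p = 0.9998), close to -0.59 for the zero-padded pair and -0.55 for the 2-digit pair. Of the 14 measured genes of mineralocorticoid and glucocorticoid action, 0 passed the threshold and the median was -0.015. Sgk1 was the only one whose groups did not overlap, beside 2.33% of all features that were lower without overlap. The mineralocorticoid receptor gene Nr3c2 had 0.55 to 0.79 in gratified and 0.47 to 0.59 in furosemide hypothalamus.

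Of 12 sodium channels and sodium-coupled transporters none passed, with 7 below 0. Trpv4, an osmosensitive cation channel, had -0.52, -0.48, -0.46 and -0.33 on gratified arrays and -0.15, -0.25, 0.055 and -0.23 on furosemide arrays (difference -0.31 ± 0.093, adjusted p = 0.969). It was lower without overlap, as were 2.33% of all features. Scn7a, the sodium-sensing channel, had 0.11 to 0.52 in gratified and 0.071 to 0.33 in furosemide hypothalamus. Agt, the angiotensin precursor that astrocytes make, had 2.17 to 2.25 in gratified and 2.13 to 2.24 in furosemide hypothalamus (difference 0.051 ± 0.12), and the receptor Agtr1a had 0.052 to 0.37 and 0.11 to 0.37. The 12 genes of the renin-angiotensin and natriuretic peptide list had a median of -0.059, and their groups overlapped in all. The 6 sodium pump subunits had a median of -0.033, with Atp1b1 lowest at -0.81 ± 0.35 (unadjusted p = 0.0300), the gene whose value of -0.24 on gratified replicate 1 is given above.

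Of 24 measured hypothalamic peptide genes, 0 passed the threshold and the median difference was -0.0057. Avp, the vasopressin gene, had 2.75 to 3.05 in gratified and 2.74 to 3.02 in furosemide hypothalamus (difference -0.013 ± 0.29). Oxt differed by -0.0031 ± 0.36, Hcrt, the orexin gene, by 0.078 ± 0.29, Pmch, which encodes melanin-concentrating hormone, by 0.18 ± 0.25, and Cartpt by 0.037 ± 0.19. The feeding peptides Agrp and Pomc differed by -0.14 ± 0.20 and 0.073 ± 0.15. The groups did not overlap for Npy and Penk, lower, and for Adcyap1 and Ucn, higher, beside 2.33% and 1.12% of all features. Npy had 2.07, 2.21, 2.19 and 2.26 in gratified and 2.29 to 2.38 in furosemide hypothalamus, and Ucn, the urocortin gene, 0.85, 0.99, 0.66 and 0.47 against 0.28 to 0.46. Of 19 receptors of peptides and hormones, Hcrtr1, an orexin receptor, was higher on every gratified array (0.52, 0.43, 0.29 and 0.53, against 0.087 to 0.27, difference 0.24 ± 0.097). So was Sstr1, beside 1.12% of all features.

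The 26 measured immediate early genes, which neuronal activity induces, had 0 past the threshold and a median of -0.027. Fos had -1.59, -1.46, -1.35 and -1.53 on gratified arrays and -1.53 to -1.35 on furosemide arrays, and Arc 0.45 to 0.81 and 0.56 to 0.80, both with full overlap. Egr1 had -1.36, -1.27, -1.08 and -1.40 in gratified and -1.04, -1.08, -1.12 and -0.78 in furosemide hypothalamus, a difference of -0.28 ± 0.12 and the groups overlapped at gratified replicate 3. Nr4a1 and Egr3 were lower and Bdnf and Nr4a2 higher on all gratified arrays, beside 2.33% and 1.12% of all features. Of the list's genes 11 were above 0 and 15 below.

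Marker lists of neighbouring structures carried the largest list medians, both negative. All 10 measured choroid plexus genes were below 0, with a median difference of -0.38 (-0.33 in the zero-padded and -0.36 in the 2-digit pair), 0 past the threshold and 4 lower at an unadjusted p under 0.05, beside 1.72% of all features. The mean level of the list was 0.36 to 0.43 on gratified arrays and 0.40 to 1.04 on furosemide arrays, with furosemide replicate 2 at the low end, and 0.27 to 0.67 on controls. Without furosemide replicate 2 the median was -0.52. Ttr, the transthyretin gene of the choroid plexus, had 1.21, 1.16, 1.90 and 1.02 in gratified and 3.17, 1.52, 3.15 and 2.89 in furosemide hypothalamus (difference -1.36 ± 0.51, adjusted p = 0.9998). Folr1, a folate receptor, had 0.066, -0.044, 0.042 and -0.12 in gratified and 0.68, 0.19, 0.59 and 0.58 in furosemide hypothalamus. Its values were tied on 3 of 4 gratified arrays, so no size is given. Clic6 had 1.22, 1.39, 1.42 and 1.44 against 1.86, 1.40, 1.93 and 1.82.

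Of 13 measured striatal markers, 12 were below 0, with a median of -0.26 and 4 lower at an unadjusted p under 0.05. The list's mean level was 1.17 to 1.37 on gratified, 1.53 to 1.60 on furosemide and 0.96 to 1.47 on control arrays, so that the furosemide arrays lay above both other groups. Over all features 1.72% were lower at that p. The groups did not overlap for 4 genes, Penk, Ppp1r1b, Rgs9 and Bcl11b, beside 2.33% of all features that were lower without overlap. Rgs9, a regulator of G protein signalling, had 1.94, 1.72, 1.94 and 1.89 in gratified and 2.11 to 2.16 in furosemide hypothalamus. Bcl11b, a transcription factor of striatal and cortical neurons, had 1.02, 0.66, 0.73 and 0.85 in gratified and 1.04 to 1.15 in furosemide hypothalamus. The lower values of Ppp1r1b, Drd1 and Penk stand in this list as well as in the dopamine, opioid and peptide lists, and the part of striatal tissue in them was not tested. Of 19 cortex and hippocampus markers 14 were below 0 with a median of -0.12. Icam5, Mef2c and Nrgn were lower without overlap, beside 2.33% of all features. Neurons (median -0.035), astrocytes (0.010), oligodendrocytes and myelin (0.037) and hypothalamic regional markers (0.072) had medians closer to 0.

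**Figure D3:**
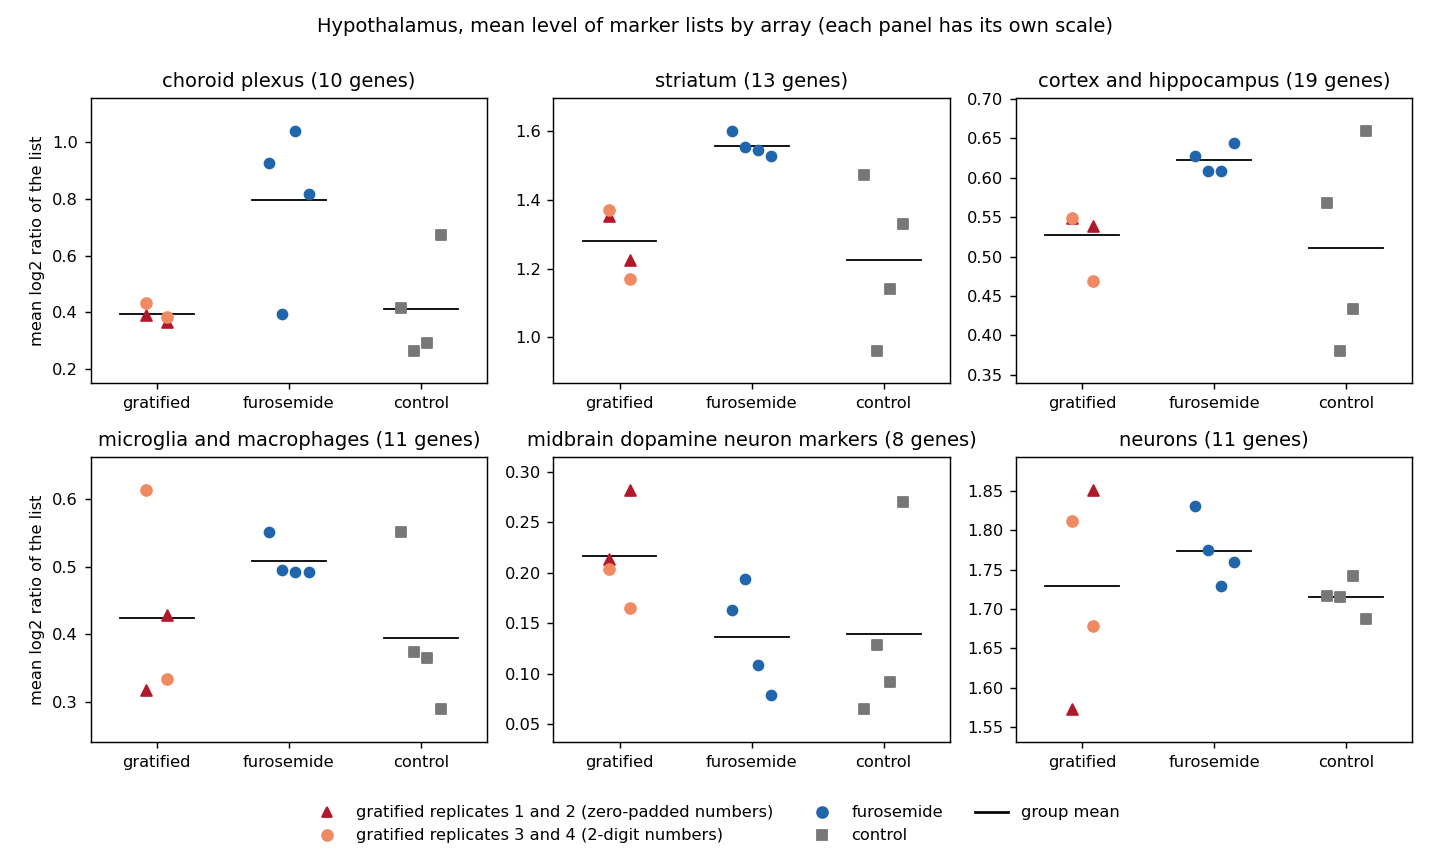
Mean log2 ratio of the measured genes of 6 marker lists in each gratified, furosemide and control hypothalamus array, with the group mean as a line. The striatum list is at 1.17 to 1.37 on gratified and 1.53 to 1.60 on furosemide arrays, and the choroid plexus list separates 3 furosemide arrays from the gratified ones while furosemide replicate 2 lies among them.

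Microglia and macrophage genes had a median of -0.11 over 11 genes, 9 below 0. The complement gene C1qc had 1.94 to 2.00 in gratified and 2.01 to 2.17 in furosemide hypothalamus, Tyrobp, a signalling adaptor of microglia, -0.22 to -0.091 and 0.049 to 0.12, and Trem2 -0.57 to -0.45 and -0.45 to -0.27. For each of them the groups did not overlap, beside 2.33% of all features that were lower without overlap. The difference for Tyrobp was -0.25 ± 0.090. Of 47 genes of oxidative phosphorylation 42 were below 0 with a median of -0.10, beside -0.014 for all features. In 5 of them, ATP synthase or complex I subunits (Atp5c1, Atp5h, Atp5l, Atp5pb and Ndufs8), the gratified arrays were lower without overlap, beside 2.33% of all features. None of these genes passed the threshold. Proteasome genes had a median of -0.071 over 27 genes and ribosomal proteins -0.097 over 15. Over all 37 lists the medians ran from -0.38 for the choroid plexus to 0.11 for the midbrain dopamine neurons, a list added after the values were seen. Among the lists not added in that way, the highest median was 0.072, for hypothalamic regional markers.

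**Figure D4:**
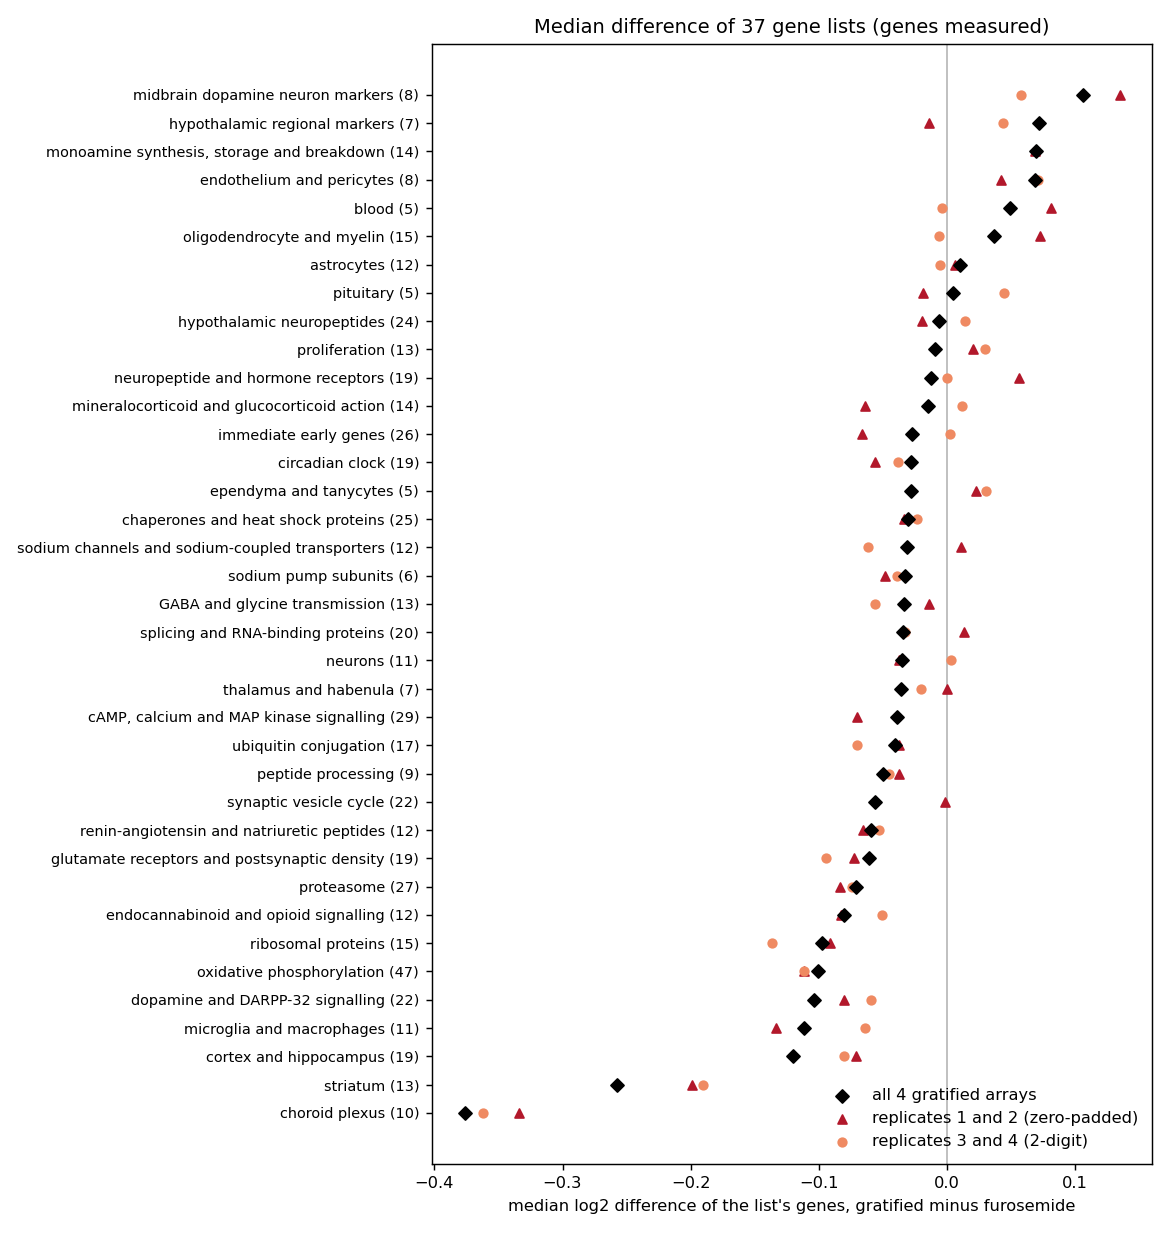
Median log2 difference of the measured genes of each of 37 lists, gratified minus furosemide, for all 4 gratified arrays and for each gratified pair, with the number of genes measured in brackets. The choroid plexus list at -0.38 and the striatum list at -0.26 lie lowest, and the pairs lie on the same side of 0 in both. The lists of midbrain dopamine neurons and of monoamine synthesis, storage and breakdown were added after the values were seen.

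The gratified pairs were then set against furosemide one at a time. For the zero-padded pair, 3 features passed the threshold (0.0314% called, 1 higher and 2 lower, 0.0105% and 0.0209%), and 464 had an unadjusted p under 0.05 (4.86%). For the 2-digit pair 33 passed (0.345%), 11 higher (0.115%) and 22 lower (0.23%), with 366 at an unadjusted p under 0.05 (3.83%). Between the pairs themselves 22 features differed (0.23%), 14 higher (0.147%) and 8 lower (0.0837%) in the zero-padded pair, with 460 at an unadjusted p under 0.05 (4.81%). These comparisons share arrays, so their values are given side by side. With array medians set to 0, or with quantile normalization, 1 feature passed for the zero-padded pair.

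In the zero-padded pair the features past the threshold were Sft2d2, C20orf57g-s2 and Ednrb. Sft2d2, a protein of vesicle traffic, had 0.48 and -0.29 on gratified replicates 1 and 2, -0.92 and -0.80 on replicates 3 and 4, and -0.97 to -0.87 on furosemide arrays. It rose in the zero-padded pair by 1.02 ± 0.15 (adjusted p = 0.00789), and differed by 0.059 in the 2-digit pair. Ednrb, the endothelin receptor B of astrocytes and vessels, had 0.49 and 0.76, then 1.51 and 1.43, against 1.32 to 1.55 in furosemide hypothalamus. It fell by 0.79 ± 0.14 in the zero-padded pair (adjusted p = 0.0489). C20orf57g-s2 fell in both pairs, by 0.48 (adjusted p = 0.0460) and by 0.52 (adjusted p = 0.00226).

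In the 2-digit pair, 20 of the 33 features differed by over 1 log2 unit, up to 2.33. For 22 of them both arrays lay outside the range of the other 21 hypothalamus arrays. The 33 were picked by the distance of these same arrays from furosemide, so this count adds no support. The share over all features was not counted. Per3, a clock gene, had 1.20 and 2.37 on gratified replicates 3 and 4, -0.37 and -0.25 on replicates 1 and 2, and -0.25 to -0.19 on furosemide arrays, a rise of 2.00 ± 0.20 (4.01-fold, adjusted p = 1.68e-06). Grn, which encodes progranulin, had 0.24 and 0.46, then -1.44 and -1.37, against -1.51 to -1.25 (rise of 1.74 ± 0.13). The lysosomal gene Laptm5 had 1.45 and 1.29, then 0.39 and -1.06, against -1.04 to -0.88. Vcl, Tal1, Tnfrsf1a, Arhgef1 (ARHGEF1g-s1), Edn2 and Map4k4 also rose in this pair.

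The features that fell in the 2-digit pair were of mixed kinds, and the neuron marker list had a median of 0.0033 there. Penk, the enkephalin precursor, had 1.36 and 0.85 on gratified replicates 3 and 4, 2.55 and 2.53 on replicates 1 and 2, and 2.59 to 2.76 on furosemide arrays. It fell by 1.60 ± 0.17 in the 2-digit pair (adjusted p = 3.48e-06), and in the zero-padded pair the difference was -0.17 ± 0.17. Pcsk2, the convertase that cuts peptide precursors, had 0.67 and 0.77, then 2.16 and 2.15, against 2.17 to 2.20 (fell by 1.46 ± 0.31). Mapk8ip1, a scaffold of JNK signalling, had -0.0078 and -1.17, then 1.12 and 1.25, against 1.08 to 1.27. Klkb1 (KLKB1g-s1), plasma kallikrein, fell by 1.62 ± 0.12, the mast cell receptor gene Ms4a2 by 1.15 ± 0.094 and the thyrotropin receptor Tshr by 1.22 ± 0.12. For Penk, Pcsk2, Mapk8ip1, Ms4a2 and Tshr the zero-padded arrays lay close to the furosemide range, whereas Klkb1 had -0.0033 on gratified replicate 1 against 0.25 to 0.51 on furosemide arrays. For Th, Slc18a2 and Sgk1 the pairs gave like differences from furosemide, of 0.60 and 0.51, 0.67 and 0.59, and -0.59 and -0.55 in the zero-padded and the 2-digit pair. Ddc differed by 0.32 in the 2-digit pair, less than the 0.41 of the whole gratified group.

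**Figure D5:**
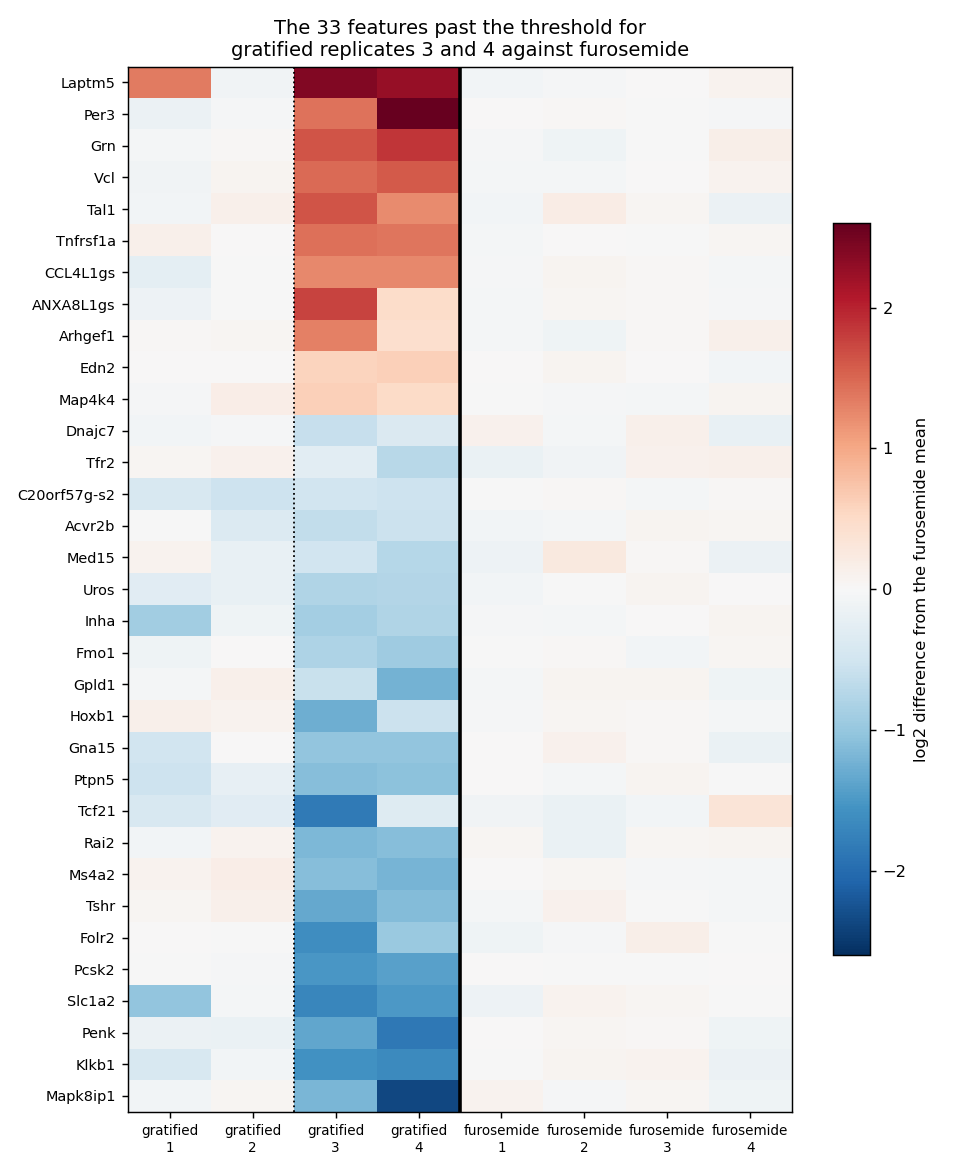
Log2 difference from the furosemide mean of the 33 features past the threshold in the 2-digit pair (rows) on the 4 gratified and 4 furosemide arrays (columns), where red is above and blue below. Gratified replicates 3 and 4 carry the colour for most features, replicate 1 shares it for Laptm5, Inha and Slc1a2, and C20orf57g-s2 is lower on all 4 gratified arrays.

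The same contrast was made in the rest of the brain, which came from the same kind of animals, and after ACTH in the hypothalamus. The description numbers were spread otherwise there. All furosemide brain arrays and gratified brain replicate 1 had zero-padded numbers, and gratified brain replicates 2, 3 and 4 had 2-digit ones. All ACTH arrays had another form of number. In the brain, group and number form thus largely coincided, and the part of each was not tested. In the brain, 0 features passed (0.0%, limma), with 344 at an unadjusted p under 0.05 (3.6%). After ACTH, 1 feature passed (0.0105%), with 761 at an unadjusted p under 0.05 (7.97%). The ACTH comparisons kept gratified replicate 4, the array with the low correlation given above. The difference of the gratification effect between the tissues passed for 2 features (0.0209%), with 248 at an unadjusted p under 0.05 (2.6%). C20orf57g-s2 was at 0.51 to 0.83 on gratified and 0.51 to 0.68 on furosemide brain arrays, and its effect in hypothalamus minus that in brain was -0.57 (adjusted p = 0.0103). Hnrnpul1 (HNRNPUL1g-s2, the only feature of this gene given here), an RNA-binding protein, differed by 0.95 (adjusted p = 0.0103). It had 0.54, 0.46, 0.58 and 0.36 in gratified and -0.19, -0.094, -0.082 and 0.44 in furosemide hypothalamus, but -0.082, 0.28, 0.25 and -0.025 in gratified and 0.48, 0.72, 0.65 and 0.50 in furosemide brain. With array medians set to 0, or with quantile normalization, neither difference passed. Between furosemide and ACTH the effect passed for 0 features (0.0%, limma), with 308 at an unadjusted p under 0.05 (3.22%).

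Sgk1 was lower in gratified brain as well, with -0.60, -1.06, -0.67 and -0.38 on gratified arrays and -0.16, -0.024, 0.037 and -0.24 on furosemide arrays (difference -0.58 ± 0.17, adjusted p = 0.998). After ACTH its order was the other way, with -0.27 to 0.57 in ACTH gratified and -1.13 to 0.10 in ACTH hypothalamus (difference 0.54 ± 0.17, adjusted p = 0.349). The effect after furosemide minus that after ACTH was -1.11 ± 0.25 (unadjusted p = 0.000219, adjusted p = 0.733). Th had 0.49 to 1.74 in gratified and 0.59 to 1.44 in furosemide brain, and 0.51 to 1.76 in ACTH gratified and 1.10 to 1.52 in ACTH hypothalamus, with overlap in both. Slc18a2 and Ddc overlapped there as well, and the test of each difference of effects for Th, Slc18a2 and Ddc had an adjusted p of 0.955 or above. A p that misses the threshold does not show that the effects were alike.

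Set beside the untreated controls, furosemide and gratified arrays gave 2 (0.0209%) and 0 (0.0%) features past the threshold (limma, with 582 and 282 at an unadjusted p under 0.05, 6.09% and 2.95%). These contrasts share arrays with each other and with the main one, so their values are set side by side and not compared. Rlbp1 was lower in furosemide hypothalamus than in controls (difference -0.46 ± 0.076, adjusted p = 0.0366), with 0.35 to 0.50 in gratified, -0.048 to 0.18 in furosemide and 0.45 to 0.61 in control hypothalamus. The other feature past the threshold, OR2A5gs, matched no mouse symbol. For Th the gratified arrays lay above the controls and the furosemide arrays below them, without overlap. For Sgk1 and C20orf57g-s2 the furosemide arrays lay above all controls and for Rlbp1 below them. The share of all features that lay apart from the controls in these ways was not counted. Th, Sgk1 and C20orf57g-s2 passed the threshold in neither contrast with the controls.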

How the data were processed

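RNA of hypothalamus (23 arrays) or the rest of the brain (21 arrays), labelled with Cy5, was hybridised against a universal mouse reference RNA (Cy3) on 44 two-colour arrays without dye swaps, per the labels. The values were deposited by the authors as 1 normalized ratio per feature, taken here as log2, since no source used here gives the base. The submitters' processing notes name limma, without a version. No intensities were used, so detection and background could not be checked. Feature names were matched to RefSeq symbols: of 9554 features, 8651 matched a mouse symbol, 580 a synonym, 29 several genes and 294 none.

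Group means were fitted over all 23 hypothalamus arrays (lmFit and eBayes of limma 3.58.1, R 4.3.3), with Benjamini-Hochberg adjustment over 9554 features and a threshold of 0.05. The gratified pairs were fitted as groups of their own. Differences of effects between tissues and between treatments were interaction terms. The fits were tested on simulated data. Values after ± are standard errors for differences. Nothing says that the arrays hold separate animals, so the p-values reflect only how these samples spread, which may be technical. Precision is limited by the number of arrays.

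Features tied with another on more than 0.5 of a group's arrays got no size. A gene named with its feature in brackets has several features. The others are given only for Slc1a2 and C20orf57, so agreement between features was not checked for the rest. Lists took the feature of a gene with the largest SD over the hypothalamus arrays. Named genes were the 10 smallest p in each direction with the same sign in both gratified pairs, features called with opposite signs, up to 3 per list, fixed genes, and 5 per contrast of pairs or effects. C20orf57g-s2, Ddc, Maoa, the remaining features of the 2-digit pair and 2 of the 37 lists were chosen after values were seen. The groups and lists were chosen with earlier results of these data known. Alternatives were other scalings, other sets of arrays, array weights, the number series as a factor, a replicate block and leaving out each array.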

Additional observations from a re-analysis of the deposited data

Results flagged for a closer look

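Among 98 groups of 4 values (49 named features), 3 single arrays stood far from the rest of their group by Dixon's test, where chance gives about 1 in 20 groups. Gratified replicate 2 had 0.743 for Inha, the inhibin alpha gene, against -0.033 to 0.078 on the other gratified arrays. Furosemide replicate 4 had 0.560 for Trim23 (TRIM23g-s3), against -0.49 to -0.35 on the other furosemide arrays. Furosemide replicate 2 had 1.52 for Ttr, against 2.89 to 3.17 on the other furosemide arrays.

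In 2 features the effect of gratification differed between the tissues by the interaction term. The forms of the description numbers were spread differently over the groups of each tissue, as given above. For C20orf57g-s2 the effect in hypothalamus minus that in brain was -0.572 (limma adjusted p = 0.0103), lower in 4 of 4 gratified hypothalamus arrays. For Hnrnpul1 (HNRNPUL1g-s2) it was 0.947 (adjusted p = 0.0103), with brain values lower on all gratified arrays and hypothalamus values that overlapped.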

How the results depend on the processing

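The count of 1 feature past the threshold between gratified and furosemide hypothalamus (0 rises, 1 fall) was the same with array medians set to 0, with trend and robust variance, without tied features and with a replicate block. It was 3 with all 44 arrays (3 falls), 10 with array weights (6 rises, 4 falls), 33 with the number series as a factor (11 rises, 22 falls), which by its construction leaves the contrast to the 2-digit pair, 2 with only the 8 arrays (2 falls), 0 with quantile normalization (0 falls) and 2 without the ACTH groups (1 rise, 1 fall), the last chosen after seeing the data. Leaving out each of the 8 arrays gave 1 to 7 features, 0 to 1 rises and 1 to 6 falls: 7 without gratified replicate 2, and 2 without gratified replicate 3 or furosemide replicate 4. C20orf57g-s2 had -0.353 and an adjusted p of 0.226 with quantile normalization. The zero-padded pair had 1 feature past the threshold with array medians set to 0 and 1 with quantile normalization, the ACTH comparison 0 with quantile normalization, and the difference between tissues 0 with either scaling. The cause of these changes was not tested. The replicate numbers gave no sign of pairing over all features. Deviations of same-numbered arrays correlated at -0.088 to -0.038, and 0 of 4 gratified arrays correlated best with their own number. Such deviations also hold array-wide differences, so this check cannot show that the arrays were unpaired. With the replicate block, 1 feature passed (C20orf57g-s2, adjusted p = 0.00976). Leaving out single arrays was not run for the pairs, the brain or ACTH.

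Differences near 0 changed sign. Agtr1a had 0.021 and Cartpt -0.011 with the number series as a factor. Fos had 0.0154 with array weights, 0.0183 with the number series and -0.071 to 0.011 without single arrays. Avp had 2.7e-05 with the number series, 0.0527 with quantile normalization and -0.067 to 0.033 without single arrays. Oxt had 0.0030 with array medians set to 0, 0.0077 with the number series, 0.0460 with quantile normalization and -0.082 to 0.039 without single arrays. Without single arrays Hcrt had -0.0026 to 0.142 and Trh -0.034 to 0.107. Of the list medians, 628 values were within the spread and 2 moved. Without single arrays the choroid plexus median was -0.519 to -0.290 and the striatum median -0.260 to -0.183.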
